A study of Rattus norvegicus with 12 samples.

Results

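The comparison described here is that of fat level with corn oil as the only fat, in which 3 arrays of livers from rats fed 70% corn oil were set against 3 from rats fed 5% corn oil. These are 6 of the 12 arrays of the study, chosen by their labels, and all 8740 probe sets that are not array controls were tested. The rats were male Sprague-Dawley animals of 150 g at the start, cannulated into the stomach and overfed by 17% of calories for 21 days by total enteral nutrition, which delivers a liquid diet through the cannula. The other 6 arrays came from rats fed olive oil at the same levels of 5% and 70%. All diets held the same calories, and fat replaced carbohydrate, so each difference between 70% and 5% fat is also one between less and more carbohydrate. Every array was hybridised with RNA pooled from livers, and a diet has 3 such pools. How many rats went into each is not stated in the labels. The p-values therefore speak of the spread among pools.

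When carbohydrate is plentiful, the liver turns it into fat: insulin and sugar metabolites act through the factors SREBP1c and ChREBP to switch on glycolytic and fatty acid synthesis genes. Polyunsaturated fatty acids, in which corn oil is rich, lower the activity of SREBP1c, and fatty acids are also ligands of PPARA, which switches on their uptake into mitochondria and peroxisomes and their oxidation. Affymetrix arrays read a transcript with 1 or more probe sets, each a group of short probes near the 3' end of a known sequence.

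Values are log2 differences from a probe set's median over the 12 arrays, since the deposited table is centred in that way, so they give no absolute level and genes cannot be compared by level. Where several probe sets name a gene, they were averaged into 1 value. Changes are 70% minus 5% fat on that scale with the standard error of the model (SE, n = 3 arrays per diet). That model takes 1 spread per gene from all 12 arrays, olive oil included. The SE is therefore not the spread of the corn oil pools alone. Over probe sets the standard deviation of an array was 0.22 to 0.42 with corn and 0.20 to 0.27 with olive oil. A gene is said to have risen or fallen when its limma p, adjusted by the Benjamini-Hochberg method over all genes, was below 0.05. In whole liver, fewer cells of a type and less RNA per cell cannot be told apart.

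Control probe sets differed between the arrays of the 2 fat levels. The 3'/5' index compares control probe sets at both ends of the actin and GAPDH transcripts (log2 signal, 3' minus 5') and measures how complete the labelled RNA was. It stood at 1.5, 1.36 and 0.97 in pools 1 to 3 of 5% corn oil and at 0.95, 0.16 and 1.03 in those of 70%, a difference of -0.56 (exact permutation test, two-sided p = 0.2, where 3 arrays against 3 cannot give less than 0.1). A further such pair, for hexokinase, was not part of the index. It stood at -0.07, -0.08 and -0.13 with 5% and at 0.06, 0.12 and -0.21 with 70% corn oil. Bacterial and phage transcripts added to every hybridisation, read by 9 probe sets, stood at 1.27, 0.75 and 0.62 with 5% and at 0.32, 0.04 and 0.17 with 70% corn oil. The 2 groups did not overlap in these spikes, and the difference was -0.70 (exact permutation p = 0.1, the smallest possible). The index and the spike level were used as covariates below, the spikes after the values had been seen. No 2 corn oil arrays were duplicates: the root mean square of their differences was at least 0.238 log2.

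At 70% corn oil the liver held less transcript of some enzymes that turn sugar into fatty acids, among them Scd, Fasn, Acly and Me1, where 4 of 11 measured lipogenesis genes fell. It held more of some that oxidise fatty acids, among them Eci1, Decr1 and Hadha, where 3 of 16 measured genes of mitochondrial beta-oxidation rose. Adjusted for the index, 2 of the 11 and 1 of the 16 passed. Of 8740 probe sets, 184 (2.11%) passed the test, of which 114 rose (1.3%) and 70 fell (0.801%). After a second quantile normalization of the arrays this split was 26 to 25. Among 4736 named genes, 120 (2.53%) passed: 72 rose (1.52%) and 48 fell (1.01%). Of these, 21 rose and 14 fell by more than 2-fold. All 120 had arrays that did not overlap between the fat levels, as did 18.9% of all genes (8.72% higher and 10.2% lower at 70%). With the index as a covariate 23 genes passed (0.486%), among them 21 of the 120, and with the spike level 4 passed (0.0845%), all among the 120: Scd, Eci1, Aldh1a1 and Inhba. All 120 kept their direction in both fits. The count ran from 39 genes without pool 2 of 5% corn oil to 219 without pool 1 of 70% corn oil, and 32 genes passed whichever 1 of the 12 arrays was left out. Without pool 1 of 5% corn oil it was 46, without its pool 3 it was 181, and without pool 2 of 70% it was 49. In the genes below, a call that held without each of the 12 arrays in turn is called stable, and the others are named.

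**Figure D1:**
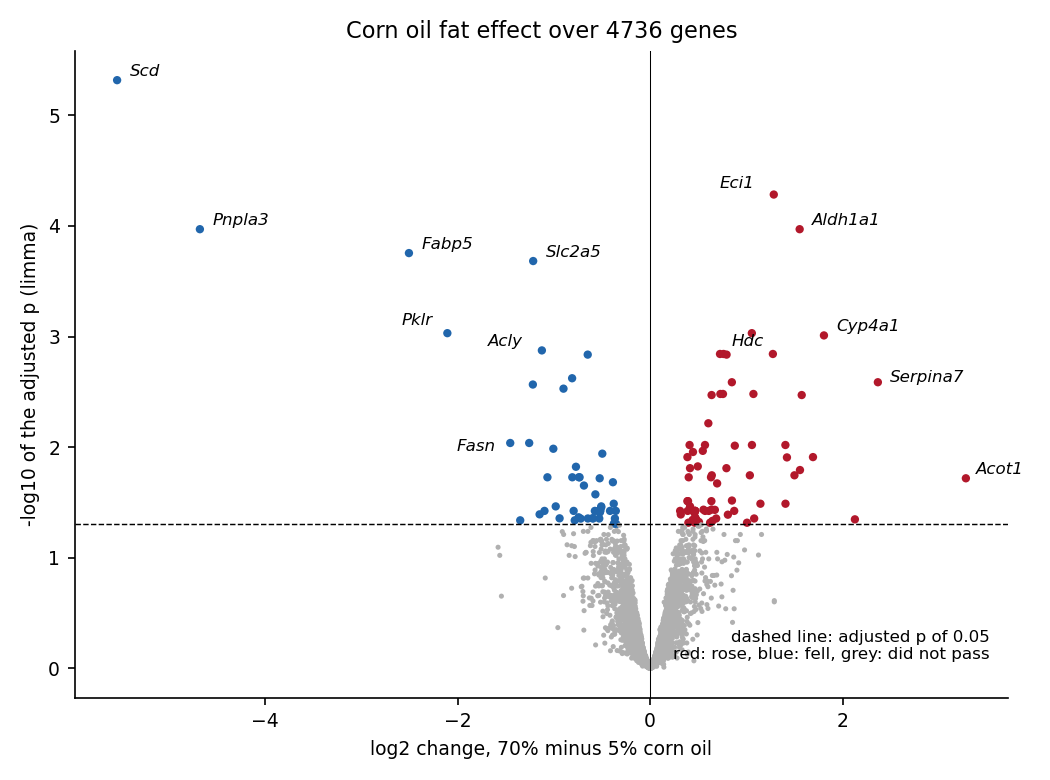
Each point is 1 of 4736 genes, with its log2 change from 5% to 70% corn oil on the x axis and -log10 of its limma adjusted p on the y axis; red genes rose, blue genes fell and grey genes did not pass. Scd and Pnpla3 lie far to the left at -5.54 and -4.68, and on the right Acot1 reaches 3.28.

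The steepest fall of all named genes was that of Scd, a gene of fatty acid synthesis and desaturation. Of 11 measured genes of a lipogenesis list 4 fell and 0 rose, beside 1.01% of all genes that fell. The list's median change was -0.11, against -0.0019 over all genes, and the other 7 genes lay between -0.21 and 0.20. Scd makes monounsaturated fatty acids from saturated ones. Its values were 1.51, 1.18 and 1.34 in the 3 pools of 5% corn oil and -3.11, -4.70 and -4.77 in those of 70%. The gap between the groups exceeded 4 log2 units, with pool 1 of 70% the least low, and the change was -5.54 ± 0.34 (adjusted p = 4.82e-06). Both probe sets of Scd fell, at -4.89 and -6.19. Fasn encodes the synthase that builds palmitate, and it stood at 0.35, -0.15 and 0.73 with 5% and at -0.67, -1.22 and -1.54 with 70% corn oil (change -1.45 ± 0.24, adjusted p = 0.00917).

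Acly and Me1 supply fatty acid synthesis with acetyl-CoA and NADPH. Acly stood at 0.34, 0.06 and 0.39 with 5% and at -0.65, -0.97 and -0.96 with 70% corn oil, a change of -1.12 ± 0.14 (adjusted p = 0.00134). The values of Me1 were 0.48, -0.01 and 0.23 against -0.83, -0.38 and -1.55, a change of -1.15 ± 0.26 (adjusted p = 0.0405). The 70% pools of Me1 spread over more than 1 log2 unit, and its call was lost without any 1 of 9 arrays (highest adjusted p 0.140). The calls of Scd, Fasn and Acly were stable. With the index as a covariate Scd (-5.22) and Acly (-1.07) still passed, while Fasn (-1.60) and Me1 (-1.54) had adjusted p of 0.051 each. Acaca, the carboxylase that makes malonyl-CoA, differed by -0.05 ± 0.07 (adjusted p = 0.793), and Srebf1, which encodes SREBP1, by 0.13 ± 0.24 (adjusted p = 0.819). The direction of both turned in other fits: with the index Acaca was at 0.014 and Srebf1 at -0.13, without pool 1 of 5% corn oil Acaca was at 5.6e-07, and without pool 2 of 70% Srebf1 was at -0.049. Of 18 measured lipid-sensing transcription factors 0 passed by limma.

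**Figure D2:**
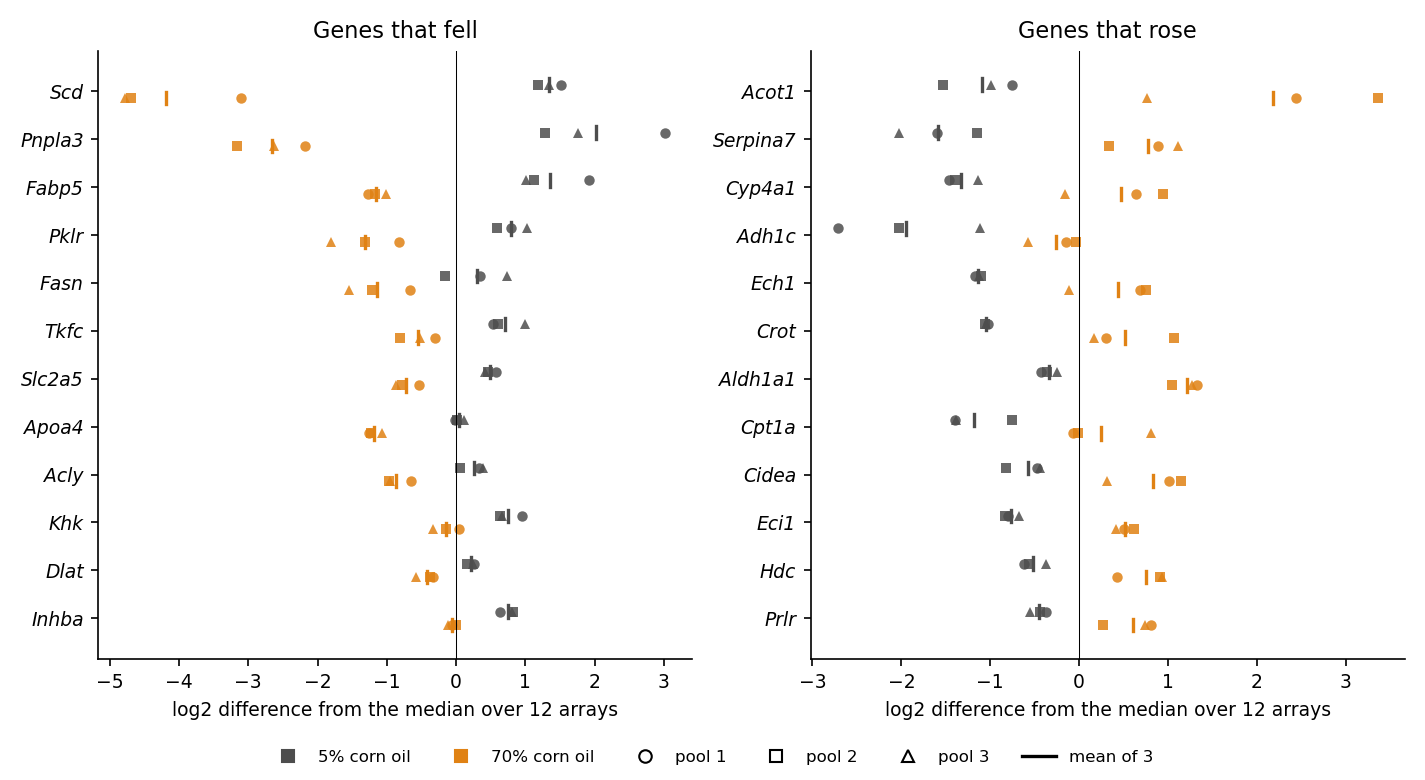
Values of 12 genes that fell (left) and 12 that rose (right) in the 6 corn oil arrays, as log2 differences from the median over 12 arrays on the x axis; grey marks are 5% and orange marks 70% corn oil, the mark's shape gives the pool and bars are means of 3. The groups do not overlap in any of these genes, and for Fabp5 and Apoa4 the 3 pools of 70% lie within 0.3 of each other.

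Some genes that bring fructose and glucose carbon into this route fell as well. Of 5 measured genes of fructose metabolism 3 fell, and 2 of 21 fell in a list that joins glycolysis to the pentose phosphate pathway. In both lists 0 rose, and of all genes 1.01% fell and 1.52% rose. Slc2a5, a fructose transporter, stood at 0.58, 0.46 and 0.42 with 5% and at -0.53, -0.77 and -0.87 with 70% corn oil, with a change of -1.22 ± 0.12 (adjusted p = 0.000208). Khk, the fructokinase, stood at 0.96, 0.64 and 0.67 against 0.04, -0.14 and -0.34 (change -0.90 ± 0.13). Tkfc phosphorylates glyceraldehyde from fructose and stood at 0.54, 0.60 and 0.99 against -0.30, -0.81 and -0.53 (change -1.26 ± 0.21). All 3 calls were stable, and each pool of 70% was below each pool of 5%. With the index Slc2a5 still passed at -1.19, while Khk at -0.84 and Tkfc at -1.19 had adjusted p of 0.051 and 0.10.

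Pklr, the liver pyruvate kinase that ends glycolysis, fell by 2.11 ± 0.25 (adjusted p = 0.000933). Its pools stood at 0.79, 0.59 and 1.02 with 5% and at -0.82, -1.31 and -1.80 with 70% corn oil. The fall was stable and passed with the index at -2.22. Its promoter is shown because it is a classical target of ChREBP, which binds a carbohydrate response element made of a pair of E-boxes. In the RefSeq promoter table of build GRCr8, the 300 bases from 250 before to 50 after the gene's start, at chr2:176841014-176841313 on the plus strand, read as follows, with the element (CACGGGGCACTCCCGTG) and a TATA box in capitals.

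Pklr: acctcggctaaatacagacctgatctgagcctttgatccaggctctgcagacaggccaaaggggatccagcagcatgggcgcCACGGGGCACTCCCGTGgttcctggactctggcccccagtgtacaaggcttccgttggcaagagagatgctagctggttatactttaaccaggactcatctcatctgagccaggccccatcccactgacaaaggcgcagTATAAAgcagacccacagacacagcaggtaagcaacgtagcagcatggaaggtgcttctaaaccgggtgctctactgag

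The carbohydrate response element was searched by its consensus, a pair of short E-box-like words with spacer bases of any letter between them, on both strands. Counted from the gene's start, its first base in Pklr is -168 and that of the TATA box, searched as TATAAA, is -29. The element was found in 9 of 27457 promoters (0.0328%), 4 of them of genes tested here: Pklr, Hes1, Nup62 and Smim7. Of these Pklr alone fell, and the changes of the others were -0.02, 0.03 and 0.0007. TATAAA was found in 14.3% of all promoters. A match describes the letters of this window and is no evidence that a factor bound there. The motif was picked with the values in view.

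Few genes of the remaining steps of glucose handling passed. Pfkfb1 encodes the bifunctional enzyme that sets the level of fructose 2,6-bisphosphate. It stood at 0.65, 0.15 and 0.23 against -0.27, -0.06 and -0.36 (change -0.57 ± 0.13, adjusted p = 0.0377), and its call was lost without any 1 of 8 arrays (highest adjusted p 0.111) and with the index (-0.63, adjusted p = 0.17). Dlat is the acetyltransferase subunit of pyruvate dehydrogenase. It was the only 1 of 9 measured genes of that complex and its kinases to pass, beside 2.53% of all genes. Its pools stood at 0.26, 0.15 and 0.25 against -0.33, -0.37 and -0.57, a stable change of -0.65 ± 0.08 (adjusted p = 0.00146) that passed with the index at -0.70. Pdk4, a kinase that shuts the complex, differed by 0.46 ± 0.22 (adjusted p = 0.275). The lowest change in this list, -0.91, belonged to a gene that did not pass. In gluconeogenesis 0 of 12 genes passed by limma. The 2 with the smallest p were Mdh1, the cytosolic malate dehydrogenase (-0.50 ± 0.13, adjusted p = 0.0706), and Pc, the pyruvate carboxylase (-0.46 ± 0.13, adjusted p = 0.0764). Pck1, the rate-setting enzyme of gluconeogenesis, spread from -1.92 to -0.28 with 5% corn oil and differed by 0.86 ± 0.49 (adjusted p = 0.383), a direction that turned to -0.41 with the spike level as a covariate.

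**Figure D3:**
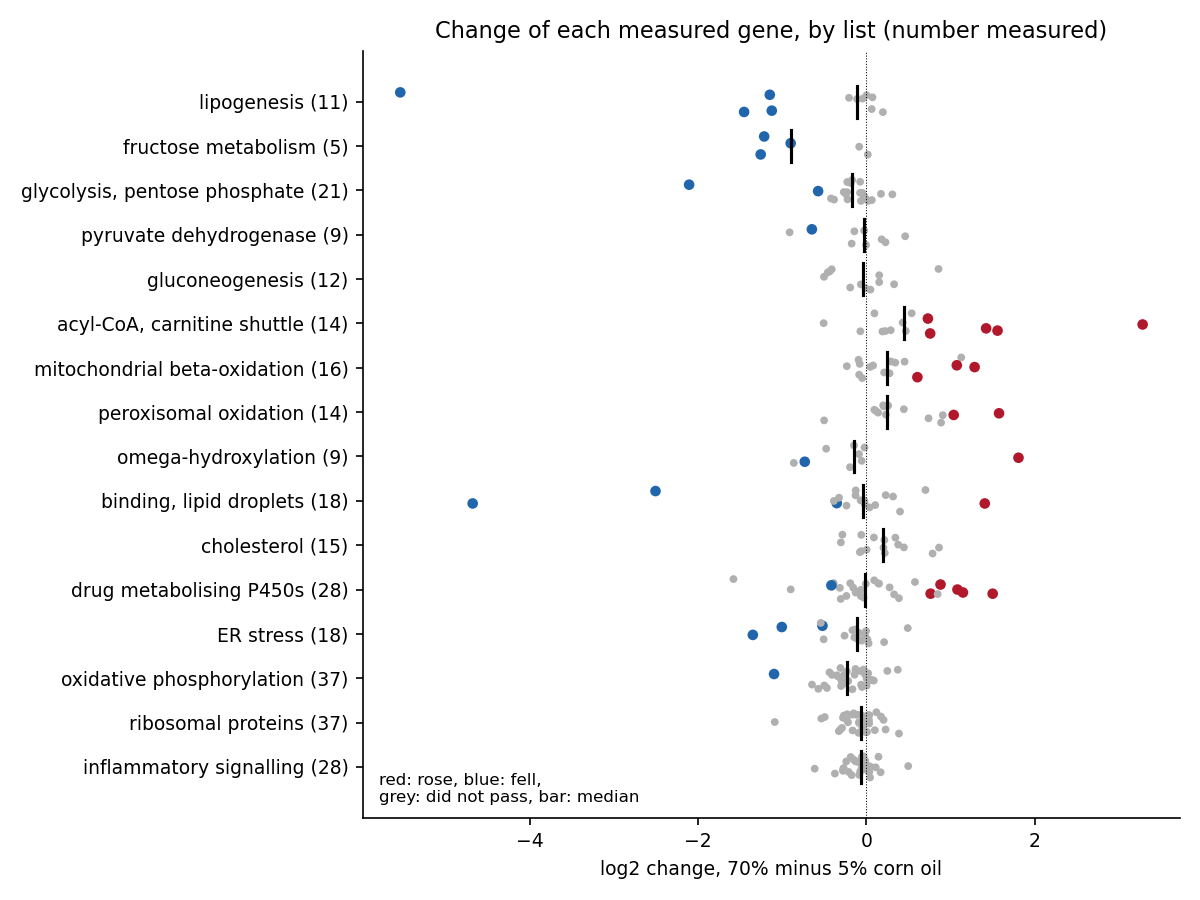
Each point is the log2 change of 1 measured gene from 5% to 70% corn oil, by list, with red for genes that rose, blue for genes that fell, grey for those that did not pass and a black bar at each list's median. The lists of the carnitine shuttle and of mitochondrial and peroxisomal oxidation have medians of 0.45, 0.24 and 0.24, and lipogenesis has a median of -0.11 with 4 genes far to the left.

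Some genes of fatty acid oxidation rose, and most of those measured did not pass. Of 14 measured genes of fatty acid activation and the carnitine shuttle 5 rose, 0 fell and 9 did not pass, beside 1.52% of all genes that rose, with a median change of 0.45. Acot1, a cytosolic acyl-CoA thioesterase and classical PPARA target, stood at -0.76, -1.54 and -0.99 with 5% and at 2.44, 3.36 and 0.76 with 70% corn oil. The 70% pools differed widely among themselves, with pool 3 far below pool 2, and the change was 3.28 ± 0.64 (adjusted p = 0.0191). Cpt1a and Cpt2, the outer and inner mitochondrial carnitine palmitoyltransferases, changed by 1.42 ± 0.25 and 0.76 ± 0.11. Cpt1a stood at -1.40, -0.75 and -1.38 against -0.07, -0.01 and 0.81, and Cpt2 at -0.45, -0.59 and -0.34 against 0.05, 0.49 and 0.36. Crot hands acyl chains from peroxisomes to carnitine and stood at -1.03, -1.06 and -1.05 against 0.30, 1.07 and 0.17 (change 1.56 ± 0.29). Slc27a2, a very long chain acyl-CoA synthetase, stood at -0.29, -0.39 and -0.23 against 0.31, 0.40 and 0.57 (change 0.73 ± 0.11).

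The calls of Cpt2 and Slc27a2 were stable. Acot1 and Crot did not pass when pool 1 or 2 of 5% or pool 2 of 70% corn oil was left out (highest adjusted p 0.093 and 0.070), nor did Cpt1a when pool 1 of 5% was left out (adjusted p = 0.061). With the index, 0 of the 5 passed: Acot1 stood at 2.32, Cpt1a at 1.65, Crot at 1.20, Cpt2 at 0.60 and Slc27a2 at 0.72. Cd36, a fatty acid transporter at the cell surface, differed by 0.23 ± 0.20 (adjusted p = 0.591).

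Within mitochondria, 3 of 16 measured genes of beta-oxidation rose and 0 fell, beside 1.52% and 1.01% of all genes. The list median was 0.24, and 5 of the 16 changes were below 0. Eci1 and Decr1 are auxiliary enzymes for unsaturated fatty acids: Eci1 is an isomerase that moves a double bond, and Decr1 is a reductase that uses NADPH to remove one from a conjugated pair. Eci1 stood at -0.80, -0.84 and -0.68 with 5% and at 0.50, 0.62 and 0.42 with 70% corn oil, a change of 1.29 ± 0.10 (adjusted p = 5.21e-05). Decr1 stood at -0.73, -0.70 and -0.56 against 0.42, 0.79 and 0.02 (change 1.07 ± 0.16, adjusted p = 0.00331). Hadha, the trifunctional protein's alpha subunit, stood at -0.42, -0.43 and -0.56 against 0.06, 0.22 and 0.12 (change 0.61 ± 0.10, adjusted p = 0.00608). The 5% pools of all 3 lay within 0.2 of each other and the calls were stable. With the index Eci1 passed at 1.18, and Decr1 at 0.75 and Hadha at 0.56 did not (adjusted p = 0.051 and 0.090). Of 2 measured genes of ketone body synthesis 0 passed.

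In peroxisomes, 2 of 14 measured genes rose and 0 fell, beside 1.52% and 1.01% of all genes. Of the 14 changes 13 were above 0, a share not counted over all genes, whose median change was -0.0019. Ech1, a further isomerase for unsaturated acyl chains, stood at -1.17, -1.11 and -1.13 against 0.69, 0.75 and -0.12 (change 1.58 ± 0.23, adjusted p = 0.00338). Pex11a, which takes part in the division of peroxisomes, stood at -0.50, -0.74 and -0.57 against 0.35, 0.85 and 0.11 (change 1.04 ± 0.20, adjusted p = 0.018). In both genes pool 3 of 70% was the lowest of its group, as it was for Acot1, Crot, Decr1 and Cyp4a1. The call of Ech1 was stable, and that of Pex11a was lost without pool 1 or 2 of 5% or pool 2 of 70% (highest adjusted p 0.083). With the index Ech1 at 1.28 and Pex11a at 0.75 did not pass (adjusted p = 0.081 and 0.21). Cyp4a1, which hydroxylates fatty acids at the omega end, stood at -1.46, -1.39 and -1.14 against 0.64, 0.95 and -0.16, a stable change of 1.81 ± 0.21 (adjusted p = 0.000978) that passed with the index at 1.36. Of the other 8 measured omega-hydroxylases 0 rose, and Cyp4f6 fell by 0.73 ± 0.14 (adjusted p = 0.0187), a call lost without pool 1 or 2 of 5% or pool 2 of 70% (highest adjusted p 0.081) and with the index (-0.57, adjusted p = 0.21).

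Among 18 measured genes of fatty acid binding and lipid droplets, 3 fell and 1 rose, beside 1.01% and 1.52% of all genes. Pnpla3 encodes a lipid droplet protein that SREBP1c switches on. It stood at 3.02, 1.28 and 1.76 with 5% and at -2.19, -3.16 and -2.62 with 70% corn oil, a change of -4.68 ± 0.42 (adjusted p = 0.000107). Fabp5, a fatty acid binding protein, stood at 1.93, 1.12 and 1.01 against -1.27, -1.17 and -1.01 (change -2.51 ± 0.24, adjusted p = 0.000176). In both genes pool 1 of 5% was the highest array, the calls were stable, and they passed with the index at -4.15 and -2.33. Fabp4, the binding protein of fat cells and macrophages, stood at 0.25, 0.28 and 0.12 against -0.20, -0.05 and -0.16. Its change was -0.35 ± 0.08 (adjusted p = 0.0495), and it did not pass without any 1 of 11 arrays (highest adjusted p 0.163) and with the index (-0.39, adjusted p = 0.18). Cidea, a protein that enlarges lipid droplets, stood at -0.48, -0.82 and -0.44 against 1.01, 1.15 and 0.32 (change 1.41 ± 0.24, adjusted p = 0.00956). It was lost without pool 2 of 5% corn oil (adjusted p = 0.053) and with the index (1.17, adjusted p = 0.15).

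Lipoprotein and sterol genes changed in 2 cases. Apoa4, an apolipoprotein of triglyceride-rich particles, was the only 1 of 15 measured apolipoproteins and lipoprotein genes to pass, beside 2.53% of all genes. It stood at -0.01, 0.01 and 0.11 with 5% and at -1.26, -1.22 and -1.06 with 70% corn oil, a stable change of -1.22 ± 0.17 (adjusted p = 0.00272) that passed with the index at -1.29. Cyp7a1, whose enzyme sets the pace at which cholesterol becomes bile acid, also passed. It was the only 1 of 13 bile acid genes to do so, beside the same 2.53%. It stood at 0.45, 0.77 and 0.47 against 0.10, -0.45 and -0.19 (change -0.74 ± 0.17, adjusted p = 0.043), and was lost without any 1 of 8 arrays (highest adjusted p 0.148) and with the index (-0.61, adjusted p = 0.27). Of 15 measured genes of cholesterol synthesis and uptake 0 passed, with 10 above 0 and a median of 0.20. The smallest p among them was that of Msmo1, a sterol methyl oxidase, at 0.86 ± 0.34 (adjusted p = 0.197).

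Of 28 measured cytochromes P450 of drug metabolism 5 rose and 1 fell, beside 1.52% and 1.01% of all genes. The list median was -0.02, with 15 of the 28 changes below 0. Its lowest change was -1.58, in a gene that did not pass. Cyp2c7, a Cyp2c enzyme more abundant in female than in male rats, stood at -2.70, -2.25 and -1.30 against -1.02, -0.19 and -0.54 (change 1.5 ± 0.28). Cyp2b2, a target of the receptor CAR, stood at -0.48, -0.75 and -0.46 against 0.12, 1.24 and 0.40 (change 1.15 ± 0.24). Cyp2e1, which oxidises ethanol and acetone, stood at -1.17, -0.88 and -0.62 against 0.15, 0.42 and -0.01 (change 1.08 ± 0.25). In Cyp2c7 and Cyp2e1 the 5% pool with the highest index had the lowest value and the 5% pool with the lowest index the highest. The 5% pools of Cyp2a1 (-1.29, -0.74 and -0.91) and of Cyp2b2 did not follow this order. A part of the index in these values was not tested. Cyp2a1 changed by 0.88 ± 0.15 and Cyp2c6v1 by 0.76 ± 0.10, and both calls were stable. Cyp2d4 fell by 0.42 ± 0.09.

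With the index as a covariate Cyp2c6v1 alone of these cytochromes passed, at 0.69 (adjusted p = 0.039). Cyp2c7 stood at 0.87, Cyp2b2 at 0.70, Cyp2e1 at 0.84, Cyp2a1 at 0.64 and Cyp2d4 at -0.41. The call of Cyp2c7 was lost without any 1 of 4 arrays, that of Cyp2b2 without any 1 of 5, and those of Cyp2e1 and Cyp2d4 without any 1 of 9 (highest adjusted p 0.082, 0.119, 0.156 and 0.124). The Cyp2 genes are close copies of each other, so a probe set may have read more than 1 of them.

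Of 14 measured alcohol and aldehyde dehydrogenases 2 rose, beside 1.52% of all genes. Aldh1a1, which oxidises retinal, stood at -0.42, -0.36 and -0.25 with 5% and at 1.32, 1.04 and 1.27 with 70% corn oil. Every pool lay within 0.3 of the others of its group, and the change of 1.55 ± 0.14 (adjusted p = 0.000107) was stable and passed with the index at 1.68 and with the spike level. Adh1c, an alcohol dehydrogenase, stood at -2.72, -2.03 and -1.11 against -0.15, -0.04 and -0.58 (change 1.69 ± 0.30, adjusted p = 0.0123). Its 5% pools spread over more than 1.5 log2 units, lowest in the pool with the highest index. The call was lost without pool 2 of 5% or pool 2 of 70% (highest adjusted p 0.062) and with the index (1.13, adjusted p = 0.18).

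Of 18 measured genes of endoplasmic reticulum stress 3 fell and 0 rose, beside 1.01% and 1.52% of all genes. Hspa5 encodes BiP, the main chaperone of that compartment, and Dnajb9 is one of its partners. Dnajb9 stood at 0.48, 0.53 and 0.37 against -0.41, -0.21 and -1.02 (change -1.01 ± 0.17, adjusted p = 0.0103), and Hspa5 at 0.51, 0.42 and 0.45 against 0.10, -0.13 and -0.15 (change -0.52 ± 0.12, adjusted p = 0.0389). Nupr1, a small stress-induced nuclear protein, stood at 0.25, 0.33 and 0.30 against -0.70, -1.93 and -0.53 (change -1.35 ± 0.32, adjusted p = 0.0458), with pool 2 of 70% far below the others. Dnajb9 passed with the index at -1.25, and its call was lost only without pool 2 of 5% (adjusted p = 0.053). Hspa5 was at -0.52 and Nupr1 at -0.83 with the index (adjusted p = 0.21 and 0.34), and their calls were lost without any 1 of 9 and of 8 arrays (highest adjusted p 0.124 and 0.136).

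The promoter of Hspa5 is shown because BiP is the textbook target of the endoplasmic reticulum stress element. It lies at chr3:38452766-38453065 on the plus strand in the same RefSeq table of build GRCr8, with the element in capitals.

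Hspa5: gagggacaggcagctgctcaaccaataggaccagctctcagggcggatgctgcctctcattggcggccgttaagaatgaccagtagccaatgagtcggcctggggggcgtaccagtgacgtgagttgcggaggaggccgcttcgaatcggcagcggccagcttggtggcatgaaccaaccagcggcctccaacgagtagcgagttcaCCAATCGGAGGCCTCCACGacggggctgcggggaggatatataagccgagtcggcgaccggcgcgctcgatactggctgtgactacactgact

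The endoplasmic reticulum stress element was searched by its consensus, CCAAT and CCACG with spacer bases of any letter between them, on both strands. This choice was also made after the values had been seen. Its first base in Hspa5 is -43 from the gene's start. It was found in 21 of 27457 promoters (0.0765%), 7 of them of genes tested here, of which Hspa5 alone passed. The other 6 were Calr, Canx, Ero1b, Foxd4, Hnrnpa3 and Hsp90b1, with changes from -0.54 (Canx) to 0.03 (Hnrnpa3). A DR1 element, the half-site pair that PPARA binds, was searched by its consensus on both strands and was found in 16 of all promoters (0.0583%) and in 0 of the 62 promoters at hand of genes that rose. A relaxed DR1, with 1 letter of each half-site left open, was also in 0 of the 62, beside 0.44% of promoters of genes tested. A sterol response element (TCACNCCAC) was in 0 of the 38 promoters at hand of genes that fell, beside 0.98% of promoters of genes tested. The E-box CACGTG was in 3 of the 38 (7.9%), beside 8.48% of those tested. For the DR1 and sterol elements the shares are so low that 0 among 62 or 38 promoters cannot show a lack. These counts say only which letters are in these windows.

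Hormone-related genes held further changes. Serpina7, the thyroxine-binding globulin, was the only 1 of 7 thyroid genes to pass, beside 2.53% of all genes. It stood at -1.59, -1.15 and -2.03 with 5% and at 0.88, 0.33 and 1.12 with 70% corn oil, a stable change of 2.37 ± 0.33 (adjusted p = 0.00259) that passed with the index at 2.82. Of 22 measured genes of the growth hormone and IGF axis 2 rose, beside 1.52% of all genes. Prlr, the prolactin receptor, stood at -0.37, -0.44 and -0.55 against 0.80, 0.27 and 0.74, a stable change of 1.06 ± 0.18 (adjusted p = 0.00956) that passed with the index at 1.29. Cish, an inhibitor of cytokine signalling, changed by 0.47 ± 0.11 (adjusted p = 0.043). Its call was lost without any 1 of 9 arrays (highest adjusted p 0.147) and with the index (0.46, adjusted p = 0.21).

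Of 29 measured genes of amino acid metabolism and the urea cycle 2 rose and 1 fell, beside 1.52% and 1.01% of all genes. Mat1a, which makes S-adenosylmethionine in liver, stood at -2.30, -1.76 and -1.45 against -0.88, -0.33 and -1.27 (change 1.01 ± 0.24, adjusted p = 0.0482), and the highest pool of 5% lay close below the lowest pool of 70%. With the index it was at 0.39 (adjusted p = 0.34). Agxt, a transaminase that clears glyoxylate, changed by 0.47 ± 0.10, and Glul, the glutamine synthetase of cells around the central vein, fell by 0.38 ± 0.09 (adjusted p = 0.0377 and 0.0489). With the index they were at 0.39 and -0.34 and neither passed. The calls of Mat1a, Agxt and Glul were lost without any 1 of 10, 6 and 11 arrays (highest adjusted p 0.163, 0.123 and 0.147).

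Of 11 measured genes of the citric acid cycle 2 rose, beside 1.52% of all genes. Aco1, the cytosolic aconitase and iron regulatory protein, stood at -0.48, -0.44 and -0.40 against 0.20, 0.49 and 0.17, a stable change of 0.73 ± 0.09 (adjusted p = 0.00144) that passed with the index at 0.56. Suclg1, a subunit of succinyl-CoA ligase, changed by 0.31 ± 0.07 (adjusted p = 0.0377). It did not pass when any 1 of 9 arrays was left out (highest adjusted p 0.124) or with the index (0.31, adjusted p = 0.19). Among 37 measured subunits of oxidative phosphorylation 1 fell, beside 1.01% of all genes. Of the 37, 11 were lower with no overlap, beside 10.2% of all genes, and the median change was -0.23. The one that fell was Cox6c, at 1.19, 0.92 and 0.91 against 0.18, -0.87 and 0.42 (change -1.10 ± 0.25, adjusted p = 0.0377). It was lost without any 1 of 8 arrays (highest adjusted p 0.127), stood at -0.71 without pool 2 of 70% corn oil, and was at -0.46 with the index.

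Several of the steepest changes lay outside these lists. Slc25a30, a mitochondrial carrier, stood at -0.53, -1.94 and -0.90 against -0.03, 1.62 and 1.42 (change 2.13 ± 0.50, adjusted p = 0.0449). Hsd17b2, which inactivates oestradiol and testosterone, stood at -0.49, -0.30 and -0.96 against 0.99, 0.75 and 0.74 (change 1.41 ± 0.30, adjusted p = 0.0324). Hdc, the histidine decarboxylase that makes histamine, stood at -0.62, -0.56 and -0.38 against 0.43, 0.91 and 0.93 (change 1.28 ± 0.16, adjusted p = 0.00144). Of these Hdc was stable and passed with the index at 1.10. Slc25a30 was lost without any 1 of 9 arrays and Hsd17b2 without any 1 of 7 (highest adjusted p 0.159 and 0.081), and with the index they stood at 1.72 and 1.65 and did not pass.

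Among the falls, Obp1f, an odorant-binding lipocalin, stood at 0.95, 0.56 and 0.22 against -0.32, -0.40 and -0.75 (change -1.07 ± 0.21, adjusted p = 0.0187). Zfp36l1, which speeds the decay of AU-rich messenger RNA, stood at 0.99, 0.89 and 0.97 against 0.46, 0.02 and -0.58 (change -0.98 ± 0.21, adjusted p = 0.0343). Both calls were lost without some arrays (4 and 6 of 12, adjusted p up to 0.077 and 0.108) and with the index (-0.97 and -1.10). The 21 genes that passed with and without the index held 4 outside these lists and outside the largest changes, singled out here after their values were seen. Gde1, a glycerophosphodiester phosphodiesterase, stood at -0.56, -0.36 and -0.42 against 0.62, 0.51 and 0.70 (change 1.06 ± 0.12, adjusted p = 0.000933). Ppp2r5a, a regulatory subunit of protein phosphatase 2A, changed by 0.79 ± 0.10 (adjusted p = 0.00146). Inhba, the activin beta A subunit, stood at 0.63, 0.83 and 0.80 against -0.05, -0.00 and -0.12 (change -0.81 ± 0.11, adjusted p = 0.00238). Map2k6, a kinase upstream of p38, fell by 0.51 ± 0.11 (adjusted p = 0.035). The calls of Gde1, Ppp2r5a and Inhba were stable, and that of Map2k6 was lost without any 1 of 10 arrays (highest adjusted p 0.114).

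Genes with several probe sets were examined one probe set at a time, because an array with less complete RNA reads distant probe sets less well. Of 1565 such genes, 73 had at least 1 probe set past the test, 203 probe sets in all. In 58 of the 73 (79.5%) all probe sets had the same sign, against 53.0% of the 1565, and in 0 were probe sets called in opposite directions. In 9 of them every probe set passed, and in 55 only 1 did. The median range between the probe sets of these genes was 0.56, against 0.19 over all genes with several, and 13 ranged over more than 1 log2 unit. The 73 were picked by a change in these same data, so a larger share and a wider range than among the 1565 follow from that choice. Positions of probe sets along the transcripts were not used, so the completeness of the RNA was not tested here. Of the 120 genes called, 79 had 1 probe set and could not be checked in this way.

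**Figure D4:**
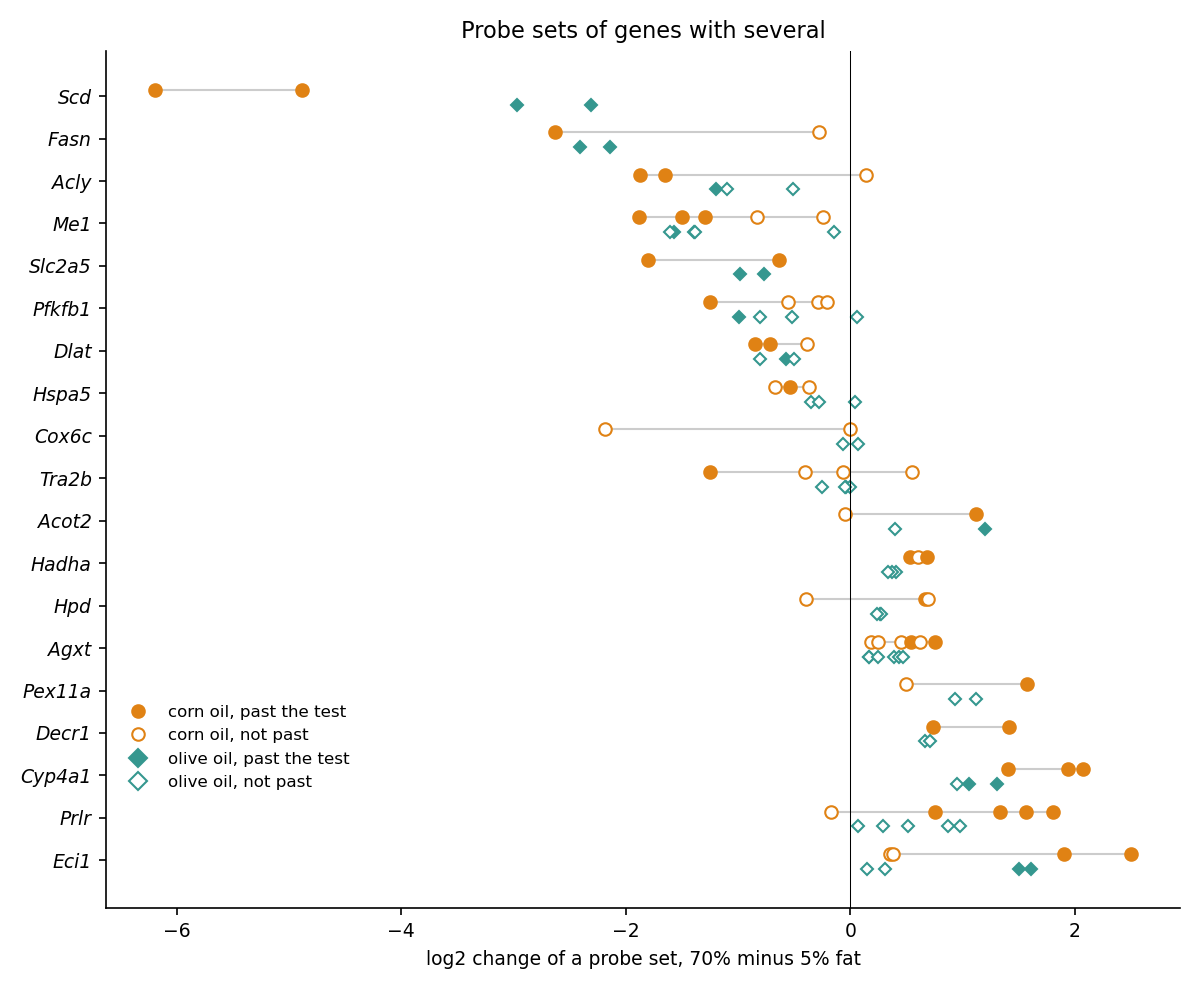
Log2 changes from 5% to 70% fat of the single probe sets of genes with several, with circles for corn oil and diamonds for olive oil, filled where the probe set passed the limma test. The probe sets of Hadha lie between 0.53 and 0.69, while those of Fasn lie at -2.63 and -0.28 with corn oil and at -2.41 and -2.14 with olive oil.

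Among those of the 73 genes with 3 or more probe sets, agreement was closest in Hadha, whose 3 probe sets changed by 0.53, 0.60 and 0.69. The 3 probe sets of Cyp4a1 rose by 1.41, 1.94 and 2.07 and all passed, a range of 0.664 against a median range of 0.558 over the 73 genes. Both probe sets of Slc2a5 fell, at -1.80 and -0.63, and both of Decr1 rose, at 1.41 and 0.73. Of the 3 probe sets of Dlat 2 fell, at -0.85 and -0.71, and the third was at -0.38. Of the 3 of Hspa5, at -0.37, -0.67 and -0.53, only the last passed. The 6 probe sets of Agxt ran from 0.18 to 0.76, all above 0, and 2 passed.

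Other genes rested on some of their probe sets. In Fasn 1 probe set stood at 1.48, 0.46 and 1.52 with 5% and at -0.76, -1.81 and -1.85 with 70% corn oil, and fell by 2.63 ± 0.31 (adjusted p over probe sets 0.00125). The other stood at -0.78, -0.77 and -0.07 against -0.58, -0.63 and -1.23, a change of -0.28 ± 0.23 (adjusted p = 0.578). In the latter the corn oil arrays of both levels overlapped and lay below the median of the 12 arrays, and with olive oil the same probe set fell by 2.14. For Acly 2 probe sets fell, at -1.87 and -1.65, and the third was at 0.14 with corn oil and at -0.51 with olive oil. Eci1 rose by 2.50 and 1.91 in 2 of its 4 probe sets, and the other 2 were at 0.38 and 0.35. In Prlr 4 of 5 probe sets rose, by 0.76 to 1.81, and the fifth was at -0.17. In Me1 3 of 5 fell, at -1.29 to -1.88, with the others at -0.83 and -0.24. The probe set with the largest corn oil change also had the largest olive oil change in that same direction in 36 of the 73 genes. With 203 probe sets in 73 genes many such matches arise by chance, and their number was not computed.

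Of the 41 called genes with several probe sets, 3 had 0 probe sets past the test: Cox6c, Cyp7a1 and Glul. The 2 probe sets of Cyp7a1 were at -1.19 and -0.29 (adjusted p over probe sets 0.097 and 0.143). The 4 of Glul ran from -0.57 to -0.15 (lowest adjusted p 0.054). Of the 2 probe sets of Cox6c, the first stood at 2.51, 1.90 and 1.84 with 5% and at 0.52, -1.81 and 0.98 with 70% corn oil. Its change was -2.19 ± 0.52 (adjusted p = 0.0533). Its lowest value was in pool 2 of 70%, which had the lowest index of the corn oil arrays. In the olive oil arrays the index was lower still (-0.43 to -0.23), and Cox6c as a gene stood between -0.22 and 0.08. A part of the index in this was not tested. The other probe set changed by -0.01 ± 0.09. With the index the first was at -0.78. Pex11a (1.58 and 0.50) and Pfkfb1 (-1.25 to -0.21 in 4) each had 1 probe set past the test. Of the 73 genes 38 passed as genes, and among those that did not were Acot2, the mitochondrial sister of Acot1, at 1.12 and -0.04, Hpd, an enzyme of tyrosine breakdown, at 0.67 beside 0.69 and -0.40, and Tra2b, a splicing factor, at -1.25 beside -0.41, -0.06 and 0.55, each with 1 probe set past the test. With olive oil the 4 probe sets of Tra2b lay between -0.25 and -0.01.

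Markers of other cell types showed few changes. Of 15 measured hepatocyte markers 0 passed, and since the values are centred, their level could not be used to check the tissue label. Cd53 was the only 1 of 12 macrophage and Kupffer cell markers to pass, beside 2.53% of all genes. It fell by 0.53 ± 0.12 (adjusted p = 0.0441). The mean of those 12 ran from -0.11 to 0.25 with 5% and from -0.11 to 0.11 with 70% corn oil, and overlapped. Kdr, a receptor of endothelial cells, changed by -0.65 ± 0.15 (adjusted p = 0.0441). It was the only 1 of 7 endothelial markers to pass, beside the same 2.53%. The mean of the 7 ran from 0.05 to 0.20 against -0.06 to -0.01. Both calls were lost with the index (-0.53 and -0.74) and without any 1 of 10 and of 8 arrays (highest adjusted p 0.156 and 0.149). The 3 erythroid markers measured had a mean of -0.14 to 0.43 against -0.34 to -0.14. Hbb, the beta globin, differed by -0.81 ± 0.22 (adjusted p = 0.0777).

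Of 23 stellate cell and matrix markers, 5 bile duct markers, 14 lymphocyte markers and 15 markers of adipose tissue and pancreas 0 passed by limma. The same held for 28 genes of inflammatory signalling, 14 of the interferon response, 29 acute phase and secreted proteins, 24 of phase II conjugation and 21 antioxidant genes. The medians of these 5 lists lay between -0.07 and 0.14. Of 37 ribosomal proteins and 20 cell cycle genes 0 passed as well, each with a median of -0.07.

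**Figure D5:**
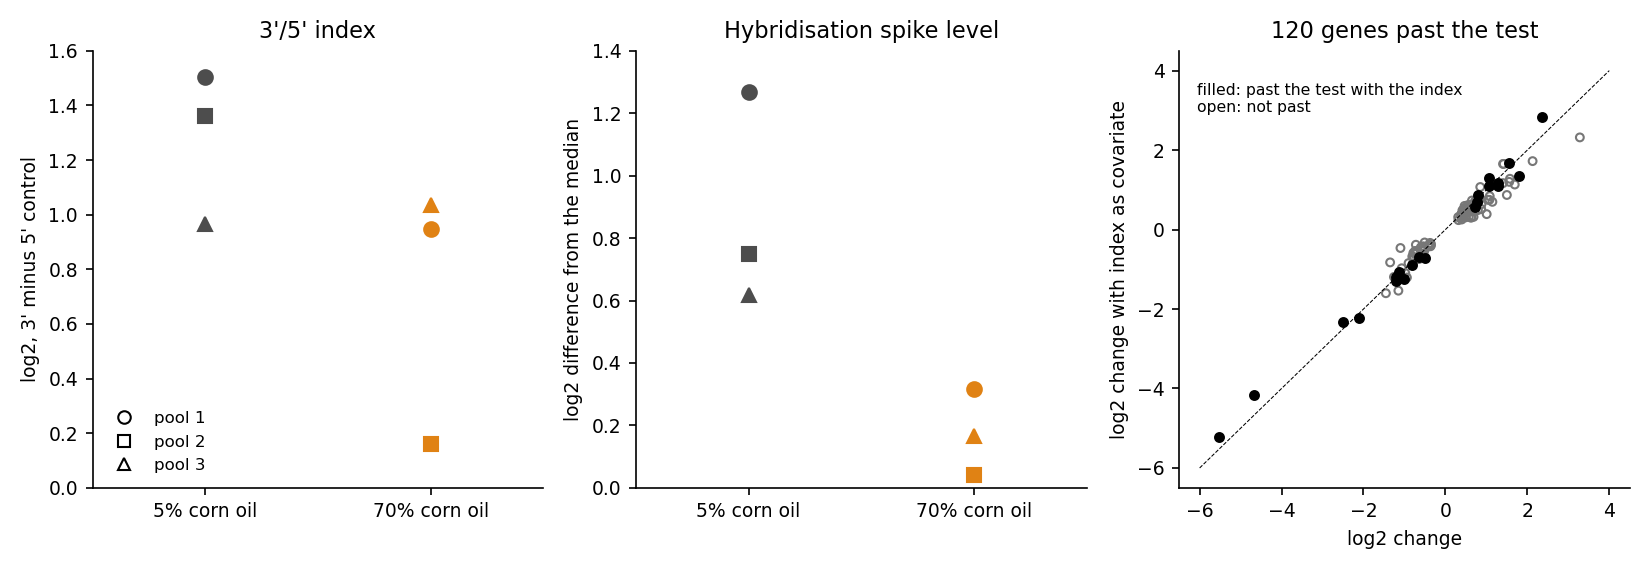
Left and centre, the 3'/5' index and the hybridisation spike level of the 6 corn oil arrays on log2 scales, by diet and pool; right, the log2 change of the 120 genes past the test without (x axis) and with (y axis) the index as a covariate, with a dashed line of equality. The spike levels of the 2 diets do not overlap, and 21 genes are filled as past the test with the index.

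Both covariates made the changes of the 120 genes smaller and their errors larger at the median. With the index the median change was 0.92 of the original and the median SE 1.31 of it, 69 of the 120 kept at least 0.9 of their change, and 15 kept less than 0.667 of it. With the spike level the medians were 0.86 and 1.63, and 26 of the 120 kept less than 0.667 of their change. The 21 genes that passed both without a covariate and with the index were 10 that rose and 11 that fell, and only 4 of the 120 passed with the spike level. Whether the completeness of the RNA or the hybridisation contributed to the 120 changes was not tested beyond these fits.

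With olive oil, whose arrays are separate, the changes of the same genes mostly ran the same way. Of the 120 genes 103 (85.8%) had the same sign with both oils, against 2504 of all 4736 (52.9%). They included all 21 that passed with the index and 82 of the other 99 (82.8%). Scd changed by -5.54 with corn and by -2.64 ± 0.34 with olive oil, Pnpla3 by -4.68 and -4.64, Fabp5 by -2.51 and -3.06, and Acot1 by 3.28 and 3.70. Adh1c (1.69 and 0.01), Cyp2c7 (1.5 and 0.04) and Cox6c (-1.10 and 0.00) changed with corn oil and were near 0 with olive oil. With the index their corn oil changes were 0.67, 0.58 and 0.42 of the original. The index of the 6 olive oil arrays lay between -0.43 and -0.23, below all 6 corn oil arrays (0.16 to 1.5), and differed between the olive oil fat levels by 0.02, against -0.56 with corn oil; its part in these 3 contrasts was not tested beyond these values. The test of the difference itself, limma's interaction, found 0 genes (0.0%) at an adjusted p below 0.05, with 565 (11.9%) at an unadjusted p below that value, and the smallest adjusted p was 0.168. No gene was therefore shown to respond differently to fat level with the 2 oils.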

How the data were processed

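Liver RNA was measured on single-colour Affymetrix arrays, and the table the authors deposited holds log2 values of 8799 probe sets. GCOS and RMA were used, per the submitters' processing notes, with no version given. The base of the log is not written in the table and 2 was assumed. Over the 12 arrays 100% of the probe sets had a median of 0 within 1e-06, so no level and no signal over background is known, and 0 columns belonged to other samples. For arrays, their number limits the precision. After 59 array controls, 8740 probe sets were tested. The platform annotation gave 1 gene to 7006 of them, several to 308 and none to 1426, and 6985 took the current GRCr8 symbol through the gene identifier. These made 4736 genes, each the mean of its probe sets.

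A linear model in limma 3.58.1 (R 4.3.3) gave each of the 4 diets a mean over all 12 arrays, with moderated variances, two-sided p-values and Benjamini-Hochberg adjustment over all probe sets or all genes, at a threshold of 0.05. The 3'/5' index and the spike level were compared by exact permutation. Alternatives were the corn oil arrays alone, a second quantile normalization, centring, a trend with robust moderation, array weights, the pool number as a block, both covariates, a 1.5-fold minimum, the median of probe sets, genes with 1 probe set and leaving out each array. On simulated data of this comparison with 4736 genes, the fit found 80% of the genes given a 1.5-fold and 99% of those given a 2-fold change, and made 9 false calls. The simulated noise was independent between genes, had 1 spread per gene in all arrays and held no index or spike difference. These figures therefore do not describe the real arrays, which differ in those controls. Named genes were the 15 largest rises and 15 largest falls without overlap, up to 4 called members of each of 42 lists or 2 with the smallest p, 12 genes with the widest and 12 with the narrowest range over probe sets, and a set always looked up, some of which are not reported here. Further called list members were named after the values were seen. Not all of these genes are named in the text. The members and lists were chosen with earlier results of these data known. Promoters were matched by symbol for 3879 genes, and gene lists are described by counts and medians.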

Additional observations from a re-analysis of the deposited data

How the results depend on the processing

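The count of genes past the limma threshold was 120. It was 39 on the 6 corn oil arrays alone, 24 after a second quantile normalization, 79 with a trend and robust moderation, 75 with array weights, 23 with the 3'/5' index, 4 with the spike level (added after seeing the data), 8 with a minimum of 1.5-fold and 75 in genes with 1 probe set. The count of probe sets, 184, was 53 on the corn oil arrays alone, 51 after quantile normalization, 40 with the index, 2 with the spike level and 15 with the 1.5-fold minimum. Leaving out 1 array in turn gave 39 to 219 genes and 59 to 348 probe sets, and the interaction between the oils, 0 genes, gave 0 to 4. Of 71 genes named with values, 59 were called, and 40 of these lost the call after quantile normalization, 38 with the index and 13 after centring each array. The direction turned for 3 genes, all uncalled: Acaca (0.014 with the index, -0.080 to 5.6e-07 with 1 array left out), Srebf1 (-0.13 with the index, -0.049 to 0.23 with 1 array left out) and Pck1 (-0.41 with the spike level). The cause was not tested.

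The index difference of -0.56 ran from -0.72 to -0.29 when 1 array was left out. Same-numbered pools of both fat levels had correlations of their deviations of 0.07, -0.14 and -0.19. So few pools cannot show whether those with the same number were handled together. With the pool number as a block 122 genes and 221 probe sets passed. A filter on low values could not be applied to centred values and was not run.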
